A study of Homo sapiens with 2 samples.

Results

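The adaptor ASC and 9 other genes of inflammasome signalling and pyroptosis were followed transcript by transcript in SAS, a human cell line from oral cancer. The genes are PYCARD (which encodes ASC), NLRP1, CARD8, CASP1, CARD16, CASP4, CASP8, GSDMD, DFNA5 and IL18. They were taken as every row of the deposited transcript table whose gene name equals one of these names, which gave 140 of 134092 transcripts and 10 of 24124 genes. The question was how the levels and the transcript make-up of these genes compare between the cells that carry added ASC and those that do not.

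An inflammasome forms when a sensor protein meets a danger signal and recruits ASC, which in turn gathers and activates caspase-1. Active caspase-1 matures the cytokine IL-18 and cuts gasdermin D, whose freed end opens pores in the cell membrane and causes the lytic death called pyroptosis. Side branches run through caspase-4, which senses bacterial lipopolysaccharide inside the cell and also cuts gasdermin D, and through caspase-8, which ASC can recruit as well. ASC was first described as a protein that gathers into specks in dying cells, and its gene is often methylated and low in carcinomas.

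Each group had 1 library. The control library came from SAS cells that stably carried the vector pLKO.AS2 without an insert, and the ASC library from SAS cells that carried pLKO.AS2 with ASC. Both lines shared the medium, DMEM with 10% FBS, and both selection drugs, G418 at 200 µg/ml and puromycin at 2 µg/ml. The ASC group was read from the vector label, since that sample's genotype label gives the name of the line rather than ASC. The labels do not say whether either line was a clone, which promoter drives the insert or which part of the PYCARD transcript it holds. With 1 library per group no difference has a replicate check and there is no test, so values below describe these libraries, called ASC cells and control cells, and a clonal difference and an ASC effect cannot be told apart.

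Listed reads came to 31426491 for ASC cells and 31289581 for control cells. Levels are given in RPKM, which divides reads by the length of the transcript and the depth of the library, summed over the transcripts of a gene. Log2 ratios are those of RPKM + 1, ASC library over control library, for the 12471 genes that reached 1 RPKM in one or both libraries. All 9 listed epithelial markers were above that level, with log2 ratios above 0 for 5 and below 0 for 4. Among them KRT5 stood at 311.0 RPKM in ASC cells and 421.0 in control cells, and KRT8 at 1136 and 763.0. Of 4 leukocyte markers found only CD68 was above it, with PTPRC at 1 and 0 reads, and none of 4 fibroblast markers was. Of 3 endothelial markers CDH5 alone was above it, at 2.23 and 1.23 RPKM, with PECAM1 at 5 and 7 reads. VWF lay just under it, at 0.584 RPKM in ASC cells and 0.840 in control cells (184 and 213 reads).

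PYCARD checks the labels. Its 4 transcripts summed to 9256 estimated reads in ASC cells and 41.0 in control cells, and its log2 ratio was 6.83, in the direction of the labels. Reads from the vector and from the cell's own gene cannot be told apart, nor, in a bulk library, more cells with the transcript and more RNA per cell. Scaled to the listed reads, the reads differed 225-fold, with a 95% counting interval of 166 to 313. This interval and those below are exact (Clopper-Pearson) intervals of rounded estimated reads and cover counting error alone, because reads may repeat a molecule. PYCARD was the only one of the 10 genes at least 2-fold higher, where 0.617% of all compared genes were, and none of the 10 was 2-fold lower, where 0.265% of all were. At a threshold of 1.5-fold CASP1 joined it, where 2.38% of all compared genes were as high, and none of the 10 was as low, where 1.81% of all were.

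**Figure D1:**
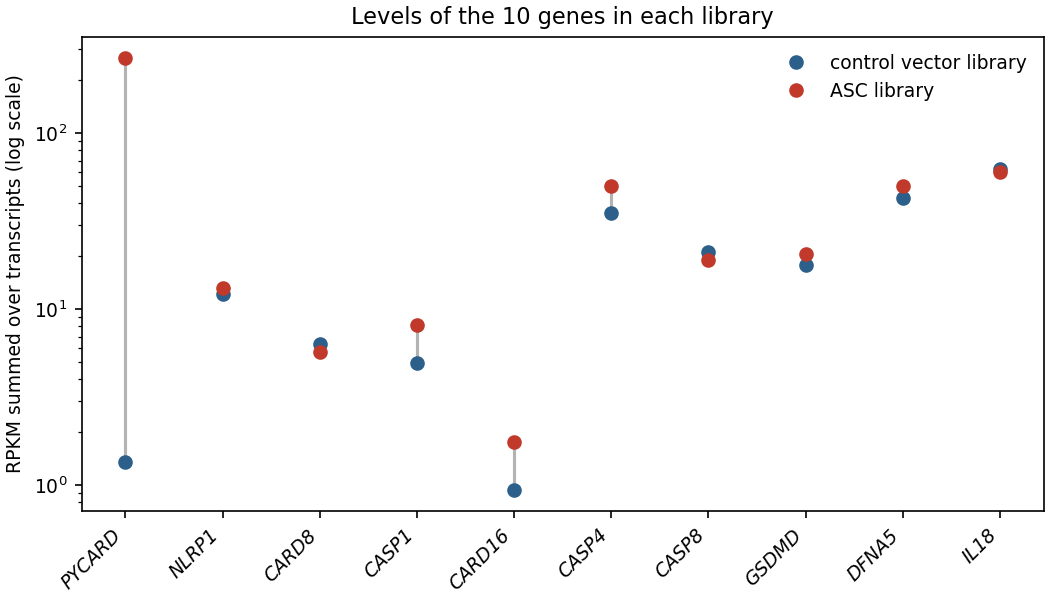
RPKM summed over the transcripts of each of the 10 genes, on a log axis, in the control vector library (blue) and the ASC library (red), 1 point per library, with a grey line joining each pair. PYCARD goes from 1.36 to 266.5 RPKM, while every other pair lies within a factor of 1.87.

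The PYCARD transcript models differ in how the gene is spliced, and the sequences that tell them apart are shown here. The gene lies on the minus strand at chr16:31201485-31203450 (GRCh38). PYCARD-201 has 3 exons and a coding region of 195 codons, the full ASC protein with its pyrin and CARD interaction domains. PYCARD-202 lacks exon 2, which is 57 bases long and codes for the linker between those domains, and has 176 codons. PYCARD-204 is a noncoding model that runs from exon 1 into the first intron and keeps all 213 bases of it. Transcript sequences here and below are those of GENCODE release 29 (GRCh38), written 5′ to 3′. Capitals mark exon 2 in PYCARD-201 (chr16:31202147-31202203) and the first retained bases of the intron in PYCARD-204 (chr16:31202360-31202416), and the lower-case run before them is the same end of exon 1 in all 3.
PYCARD-201: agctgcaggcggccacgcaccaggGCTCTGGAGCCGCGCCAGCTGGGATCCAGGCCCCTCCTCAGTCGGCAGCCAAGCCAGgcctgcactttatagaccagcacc
PYCARD-202: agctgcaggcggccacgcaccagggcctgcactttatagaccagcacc
PYCARD-204: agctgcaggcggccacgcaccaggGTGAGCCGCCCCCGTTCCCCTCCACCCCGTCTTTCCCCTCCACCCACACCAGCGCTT

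PYCARD-201 held 8948 reads in ASC cells and 26.3 in control cells. The retained-intron model PYCARD-204 held 233.1 and 8.68 reads, and PYCARD-202 held 75.5 and 5.99. All 3 were thus higher in the ASC library, by log2 ratios of reads of 8.42, 4.69 and 3.64, but by very different amounts. The share of PYCARD reads given to PYCARD-201 was 96.7% (95% interval 96.3 to 97.0) in ASC cells and 64.2% (46.9 to 77.9) in control cells. Retained-intron reads made up 2.52% (2.21 to 2.86) of PYCARD reads in ASC cells and 21.2% (10.6 to 37.6) in control cells. The model without exon 2 made up 0.815% (0.638 to 1.01) and 14.6% (5.57 to 29.2). The intervals of all 3 shares do not overlap between the libraries, and those of the control library are wide because they rest on 41.0 reads. These intervals leave out error in assigning reads between the models. Of 941 distinct stretches of 50 bases in PYCARD-201, 47 are its own, beside 46 of 647 in PYCARD-202 and 181 of 601 in PYCARD-204. The share of all transcripts in the table whose intervals also fail to overlap was not taken.

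Part of the PYCARD sequence is shared with an antisense gene, PYCARD-AS1, which overlaps it on the plus strand. Of the 1728 distinct 50-base words in the PYCARD transcripts, 54.6% also occur in PYCARD-AS1 when both strands are read. The library kit does not mark strand, so reads of the pair cannot be told apart there. PYCARD-AS1 was listed with 3 reads in ASC cells and 2 in control cells.

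Of the other 9 genes, 6 had a log2 ratio above 0 and 3 below. Their median was 0.20, beside 0.01 over all compared genes, of which 52.0% lay above 0. The highest were the 3 genes that lie together on chromosome 11, CASP1 (0.62), CASP4 (0.51) and CARD16 (0.51). Only 2.13% of all compared genes were at least as high as CASP1, and 3.29% at least as high as CASP4. CARD16 reached 1 RPKM in the ASC library alone, at 1.77 RPKM against 0.947 in control cells, so its rank is not given. Its reads also sum to whole numbers only together with those of CASP1, as given below. DFNA5 (0.22), GSDMD (0.20) and NLRP1 (0.10) were closer to 0, and IL18 (-0.05), CARD8 (-0.12) and CASP8 (-0.13) lay slightly below it.

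**Figure D2:**
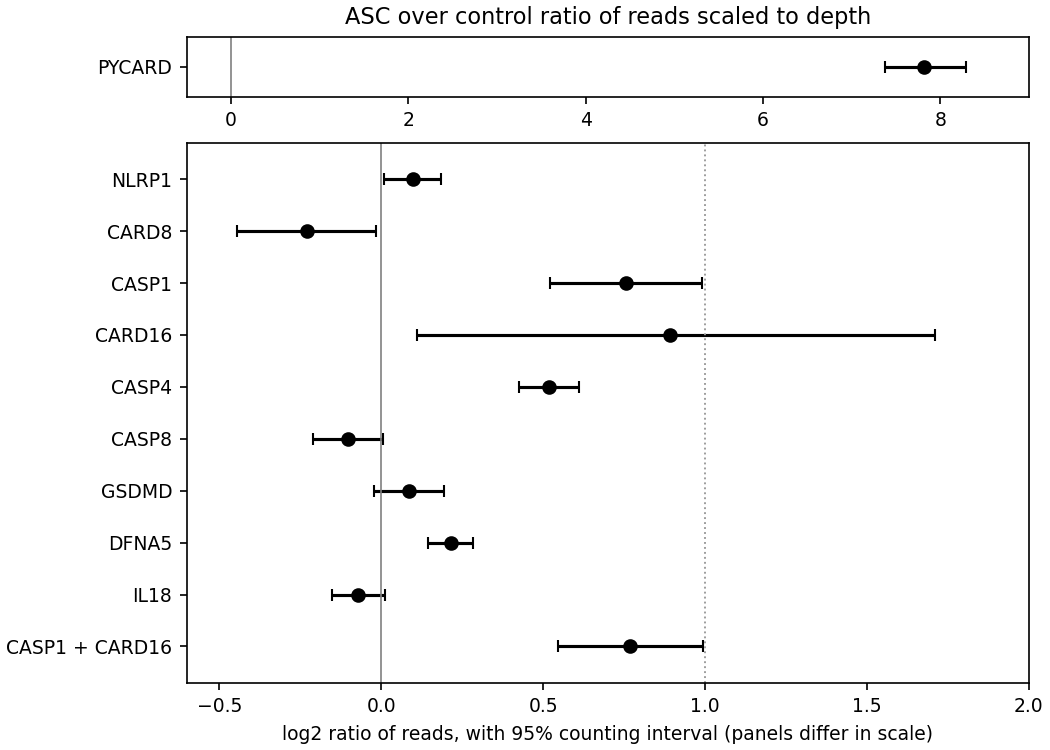
Log2 ratio of estimated reads scaled to the listed reads, ASC over control library, for each gene and for CASP1 and CARD16 together (points), with 95% counting intervals (bars). The scale of the upper panel, for PYCARD, differs from that of the lower one. The bars of CASP1, CARD16, CASP4, DFNA5 and NLRP1 lie above 0, that of CARD8 lies below 0, and those of CASP8, GSDMD and IL18 hold 0. They cover counting error alone, and the share of all compared genes whose bars would miss 0 was not taken.

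Among the sensors, NLRP1 is a protein that cuts itself and is set free to form an inflammasome when its front part is degraded, and in human epithelium it is the main inflammasome sensor. The gene lies on the minus strand at chr17:5499427-5619424. It held 2200 reads in ASC cells and 2047 in control cells, a log2 ratio of reads of 0.10 (0.01 to 0.19). Its reads were spread over many of its 17 models. NLRP1-201, which codes for 1375 codons, held 23.4% of the reads in ASC cells and 24.9% in control cells, and NLRP1-208, with 1429 codons and another stop codon, held 21.4% and 24.9%. So the leading models were close in both libraries.

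The smaller NLRP1 models went both ways. NLRP1-202 held 233.1 reads (10.6%) in ASC cells and 104.5 (5.10%) in control cells. NLRP1-217 held 230.2 (10.5%) and 88.3 (4.31%). Both were thus higher in plain RPKM, by 2.24-fold and 2.62-fold, while the gene as a whole differed 1.08-fold. On the RPKM + 1 scale their log2 ratios were 0.54 and 0.64, which is under 2-fold. NLRP1-205, annotated as a target of nonsense-mediated decay, went from 12.0% in the control to 7.30% in the ASC library, and NLRP1-216 from 11.9% to 8.73%. Grouped by coding region, the 1443-codon models took 11.3% (10.1 to 12.8) in ASC cells and 5.14% (4.21 to 6.18) in control cells. The 1473-codon models took 9.48% (8.31 to 10.8) and 14.6% (13.1 to 16.2), and the 1429-codon models differed by less than 3 points. So did the 1375-codon models when NLRP1-205, which has the same coding region, is left out. Models that end at the stop codon at 5514754 together held 55.4% and 51.4%, and those that end at 5501814 held 34.7% and 38.1%. Few bases separate these models: NLRP1-205, NLRP1-208, NLRP1-216 and NLRP1-217 have 1, 5, 0 and 0 50-base words of their own, so their split rests on the authors' read assignment.

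CARD8 is a related sensor that is likewise held back by the peptidases DPP8 and DPP9, and in blood cells it leads to pyroptosis. It lies on the minus strand at chr19:48180770-48255946. It held 334.0 reads in ASC cells and 390.0 in control cells, a log2 ratio of reads of -0.23 (-0.45 to -0.02). Of its 30 models the retained-intron model CARD8-222 held most reads, 144.4 and 212.1, or 43.2% (37.7 to 48.6) and 54.4% (49.3 to 59.4). All retained-intron models together held 47.1% and 59.0%. The models with 487 codons held 42.6 and 17.1 reads, or 12.8% (9.48 to 16.9) in ASC cells and 4.38% (2.56 to 6.89) in control cells. Among them CARD8-216 held 29.4 and 7.30 reads, CARD8-203 held 12.6 and 0.266, and CARD8-221 held 0.624 and 9.51. The models with 537 codons went the other way, with 1.99 and 8.56 reads, and their share intervals overlap. These models are outside the naming rule given below. CARD8-203, CARD8-213 and CARD8-216 have no 50-base word of their own, so this split rests on the authors' read assignment. CARD8-214, a short model of 70 codons, held 19.2% and 18.3%. Weighted by RPKM the order turned, with 51.0% and 50.9% for CARD8-214 and 15.0% and 19.9% for CARD8-222. Most CARD8 reads were therefore given to models that do not code for the whole sensor in either library. CARD8-AS1, an antisense gene that overlaps its start, was listed with 41 and 30 reads.

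CASP1 encodes caspase-1, the protease that ASC gathers, and CARD16 encodes a short protein made of little more than the CARD of caspase-1, which binds caspase-1 and acts as a decoy. The genes are neighbours on the minus strand, at chr11:105025443-105035250 and chr11:105041326-105101431. Their coding regions open almost alike. Over the first 274 coding bases, up to the border of the shared exons, 3 bases differ (98.9% identity) and the longest identical run is 144 bases. Capitals mark the bases that differ between CASP1-202 (spliced from chr11:105034208-105035113) and CARD16-201 (spliced from chr11:105044392-105045297).
CASP1 coding start: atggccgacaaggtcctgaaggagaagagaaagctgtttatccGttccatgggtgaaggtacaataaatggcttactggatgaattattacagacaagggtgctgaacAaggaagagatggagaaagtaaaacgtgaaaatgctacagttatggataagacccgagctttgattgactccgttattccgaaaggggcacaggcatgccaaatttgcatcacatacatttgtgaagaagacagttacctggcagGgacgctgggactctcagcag
CARD16 coding start: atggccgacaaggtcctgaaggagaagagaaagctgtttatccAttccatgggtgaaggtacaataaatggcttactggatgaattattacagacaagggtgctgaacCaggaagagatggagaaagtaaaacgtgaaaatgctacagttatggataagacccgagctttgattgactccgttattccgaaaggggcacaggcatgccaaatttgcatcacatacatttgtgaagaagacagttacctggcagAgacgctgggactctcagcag

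CASP1 held 407.1 reads in ASC cells and 239.8 in control cells, and CARD16 held 40.9 and 22.2. Each of these sums is fractional, but CASP1 and CARD16 together held 448.0 and 262.0 reads, which are whole numbers within 0.05. The fractions of the pair thus cancelled. The combined reads were 1.70-fold higher in the ASC library, a log2 ratio of 0.77 (0.54 to 0.99), a value that does not depend on the split. Taken singly, the log2 ratio of reads was 0.76 (0.52 to 0.99) for CASP1 and 0.89 (0.11 to 1.71) for CARD16. Of the 50-base words of CARD16, 10.6% also occur in CASP1. In 7 of the 10 genes the summed reads were whole in both libraries within 0.05, the exceptions being CASP1, CARD16 and PYCARD, whose 9256 reads in the ASC library were 0.373 from a whole number.

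Within CASP1 the full-length models and the shortened model CASP1-204 differed in their split. CASP1-202 and CASP1-215 code for the same 404 codons, and CASP1-204 for 383, since it lacks the 63 bases at chr11:105033064-105033126, shown in capitals. They follow the CARD in the protein and lie in its linker.
CASP1-202: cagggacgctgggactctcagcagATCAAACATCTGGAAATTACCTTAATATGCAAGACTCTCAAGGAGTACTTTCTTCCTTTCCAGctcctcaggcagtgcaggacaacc
CASP1-204: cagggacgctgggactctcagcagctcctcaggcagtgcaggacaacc

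The 404-codon models held 326.2 reads in ASC cells and 157.4 in control cells, or 80.1% (75.9 to 83.9) and 65.6% (59.0 to 71.4) of the CASP1 reads. CASP1-204 held 44.9 and 57.3 reads, or 11.0% (8.18 to 14.5) and 23.9% (18.5 to 29.6). The higher CASP1 level in the ASC library was thus mostly in the full-length models, 2.07-fold in plain RPKM for CASP1-202 and 2.11-fold for CASP1-215. On the RPKM + 1 scale neither of them was 2-fold higher. CASP1-204 was at 1.02 and 1.29 RPKM. The 311-codon model CASP1-206, also shorter, went the other way from CASP1-204, with 10.4 and 1.45 reads, and CASP1-217 held 6.32 and 1.34. These models are outside the naming rule given below and rest on few reads. CASP1-204 has no 50-base word of its own, so this split too rests on the authors' read assignment. CARD16-201, with 97 codons, held 29.7 and 12.4 reads, or 72.5% (57.1 to 85.8) and 56.1% (32.2 to 75.6). CARD16-202, with 197 codons, held 6.30 and 8.59 reads, or 15.4% (5.57 to 29.2) and 38.8% (20.7 to 63.6). The intervals of both CARD16 shares overlap between the libraries and rest on few reads.

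CASP4, the lipopolysaccharide-sensing caspase, lies beside CASP1 on the same strand, at chr11:104942866-104969436. It was the most abundant of the 3 genes there, with 2327 reads (50.3 RPKM) in ASC cells and 1617 (35.1 RPKM) in control cells. Its log2 ratio of reads was 0.52 (0.43 to 0.61). Every CASP4 model of at least 1 RPKM was higher in ASC cells, and their shares were close. CASP4-201 held 58.2% and 57.1%, and the retained-intron models CASP4-204, CASP4-212 and CASP4-207 held 20.4% and 18.5%, 10.3% and 11.3%, and 9.28% and 9.17%. Of the 10 genes CASP4 thus paired a higher level with shares that differed by under 2 points, while CASP1 differed in both. CASP4-201 codes for 321 codons from a start codon at 104954838. The 377-codon model from the upstream start codon at 104968523, CASP4-203, held 0.0228 and 8.54 reads and is named here after its values were seen. It shares its stop codon with CASP4-201, so the leading model is the shorter form. CASP4-202, a partial model from the same upstream start codon, held 9.03 and 25.5 reads and was likewise named after its values were seen.

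CASP8 encodes caspase-8, which starts death receptor apoptosis and can stand in for caspase-1 on ASC specks. It lies on the plus strand at chr2:201233443-201287711. It held 1353 reads in ASC cells and 1446 in control cells, a log2 ratio of reads of -0.10 (-0.21 to 0.01). CASP8-203, with 464 codons, held 38.0% (35.4 to 40.6) and 32.6% (30.2 to 35.1). Together with CASP8-207, which has the same coding region, it held 40.7% (38.1 to 43.4) and 35.8% (33.3 to 38.4), with overlapping intervals. CASP8-212, with 479 codons, held 20.1% (17.9 to 22.3) and 25.0% (22.8 to 27.4). CASP8-205, whose 538 codons begin at an upstream start codon, held 38.3 and 96.1 reads, or 2.83% (2.00 to 3.83) and 6.65% (5.41 to 8.05). It is outside the naming rule and was chosen after its values were seen. The retained-intron model CASP8-204 held 18.4% and 15.1%.

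**Figure D3:**
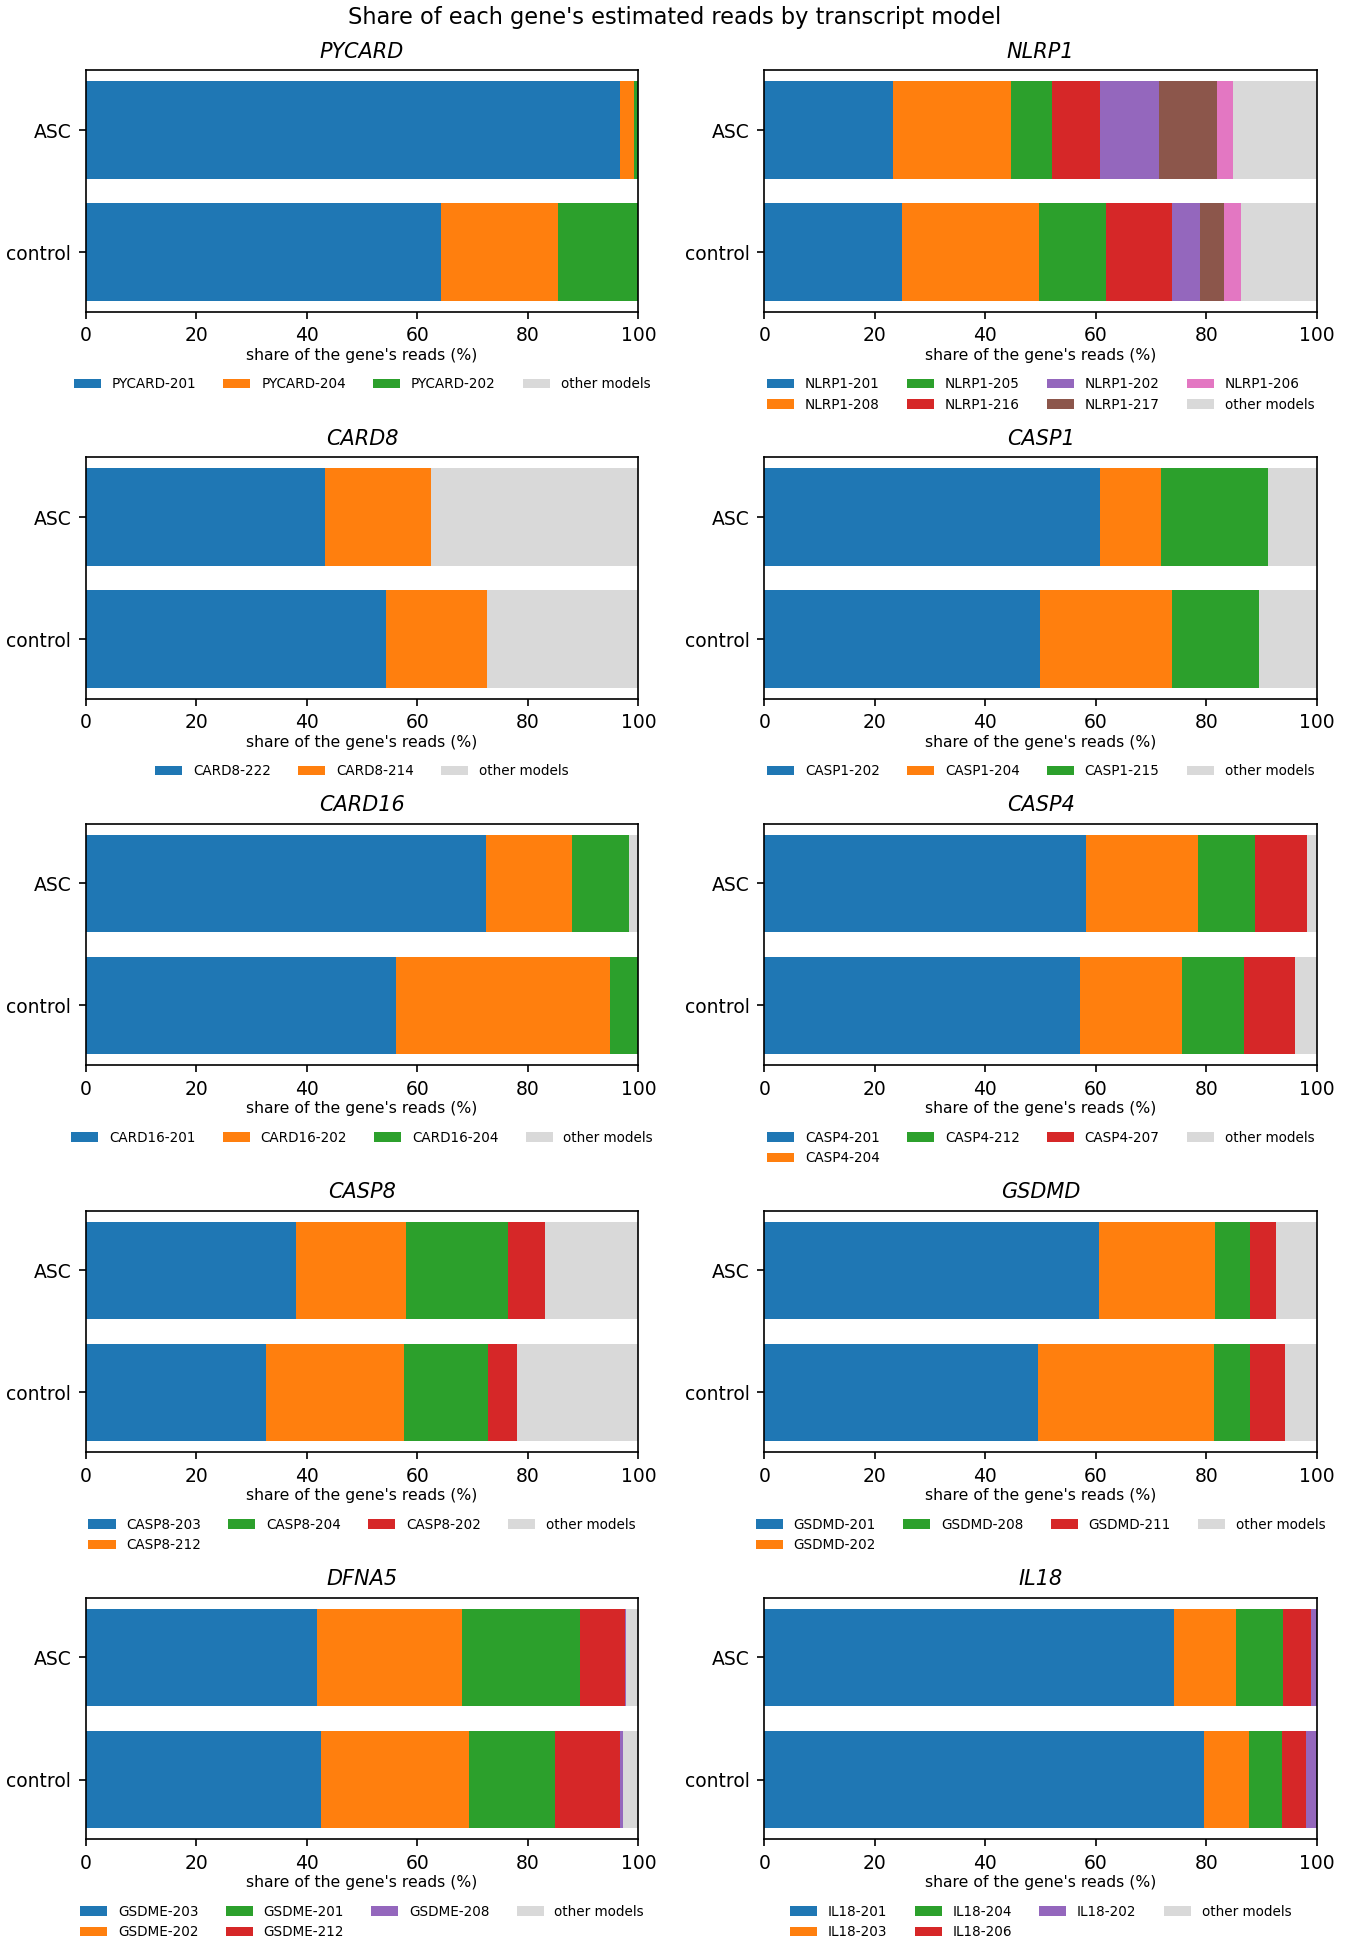
Share of the estimated reads of each gene held by its named transcript models (colours, keyed under each panel) and by all its other models (grey), as stacked bars from 0 to 100%, in the ASC library (upper bar) and the control library (lower bar). The leading model is blue. It takes 96.7% against 64.2% of PYCARD reads, and nearly equal shares of CASP4 and DFNA5 reads.

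GSDMD encodes gasdermin D, the pore former that caspase-1 and caspase-4 cut. It lies on the plus strand of chromosome 8, from 143553207 to 143563062. It held 1428 reads (20.5 RPKM) in ASC cells and 1340 (17.7 RPKM) in control cells, a log2 ratio of reads of 0.09 (-0.02 to 0.19). GSDMD-201, which codes for the 484-codon protein, held 865.3 and 664.7 reads, or 60.6% (58.0 to 63.1) and 49.6% (46.9 to 52.3). The retained-intron model GSDMD-202 held 300.0 and 424.8 reads, or 21.0% (18.9 to 23.2) and 31.7% (29.2 to 34.3). So the coding model was higher and the retained-intron model lower in the ASC library, and the sum was close. All retained-intron models of GSDMD together held 34.7% (32.3 to 37.3) and 45.7% (43.0 to 48.4), 11.0 points less in the ASC library. Among 6398 genes with such models and at least 100 reads in both libraries, 1.36% were 10 points or more lower in ASC cells, and 1.06% were at or below GSDMD. The median of those genes was -0.07 points, and 4 of the 8 genes studied here that entered this comparison lay below 0, beside 56.3% of all. CARD8, at 11.9 points less, was the other of the 8 past 10 points. The retained-intron models are long, so RPKM weights them less, and the gene's ratio was 1.16-fold in RPKM and 1.06-fold in reads.

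DFNA5, now called GSDME, encodes gasdermin E, a pore former that turns apoptosis into pyroptosis. It lies on the minus strand at chr7:24698351-24758113. It held 3637 reads (50.5 RPKM) in ASC cells and 3120 (43.2 RPKM) in control cells, a log2 ratio of reads of 0.21 (0.15 to 0.28). The leading model GSDME-203 codes for 332 codons from a downstream start codon and held 41.9% and 42.6%. The models of the full 496 codons, GSDME-201 and GSDME-202, held 47.5% (45.9 to 49.1) and 42.2% (40.5 to 44.0). The difference lay in GSDME-201, with 778.7 and 484.4 reads, or 21.4% (20.1 to 22.8) and 15.5% (14.3 to 16.8), since GSDME-202 held 26.1% and 26.7%. The retained-intron model GSDME-212 held 8.12% and 11.8%.

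IL18 encodes the cytokine that caspase-1 matures, which epithelial cells store as an inactive precursor. It lies on the minus strand at chr11:112143251-112164117. Of the 10 genes it had the highest level in the control library, and it stood at 60.4 RPKM in ASC cells and 62.8 in control cells, with 2432 and 2542 reads. The log2 ratio of reads was -0.07 (-0.15 to 0.01). IL18-201 and IL18-204 code for the 193-codon precursor. IL18-202 codes for 189 codons, since it lacks the 12 bases at chr11:112153592-112153603, which lie in the part of the precursor that caspase-1 removes and are shown in capitals.
IL18-201: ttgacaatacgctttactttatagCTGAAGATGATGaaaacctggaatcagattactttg
IL18-202: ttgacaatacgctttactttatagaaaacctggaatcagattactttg

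IL18-201 held 1803 reads in ASC cells and 2021 in control cells, or 74.1% (72.3 to 75.9) and 79.5% (77.9 to 81.1). IL18-202 held 24.9 and 48.9 reads, or 1.02% (0.666 to 1.51) and 1.92% (1.43 to 2.54). The form without the 12 bases was thus rare in both libraries. IL18-204 held 8.36% and 5.90%, and the retained-intron model IL18-203 held 11.3% and 8.17%.

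Across the 10 genes, 40 transcripts were named: the leading one of each gene and those with at least 10% of its reads or at least 1 RPKM in either library. Of the 38 with at least 1 RPKM, 3 were at least 2-fold higher on the RPKM + 1 scale, all of PYCARD, and none was 2-fold lower. Over all 34527 transcripts of that level in the table these shares were 1.26% and 1.06%. The 35 others had a median log2 ratio of 0.12, beside 0.00 over all. With a pseudocount of 0.1 RPKM the counts were 7 higher, now with CASP1-202, NLRP1-202, NLRP1-217 and CARD16-201, and 1 lower, GSDME-208, a partial model with 7.03 and 17.1 reads. At that pseudocount 4.47% of all 34527 transcripts were higher and 4.44% lower.

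The share of the leading transcript differed by at least 10 percentage points in 5 of the 10 genes: PYCARD (32.5 points more in the ASC library), CARD16 (16.4 more), CARD8 (11.2 less), GSDMD (11.0 more) and CASP1 (10.7 more). PYCARD in control cells and CARD16 in both had under 100 reads. Of the other 8 genes 3 differed as much, beside 10.9% of the 10451 genes in the table with at least 100 reads in both libraries and several models. The median absolute difference was 5.40 points over these 8 genes and 2.62 points over all. Differences of this size were not rare: 8.78% of all genes differed at least as much as CARD8, 9.08% as much as GSDMD and 9.58% as much as CASP1. When shares were taken from summed RPKM in place of reads, 3 of the 10 genes passed 10 points, since GSDMD came to 7.66 and CARD8 to -4.87 points.

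**Figure D4:**
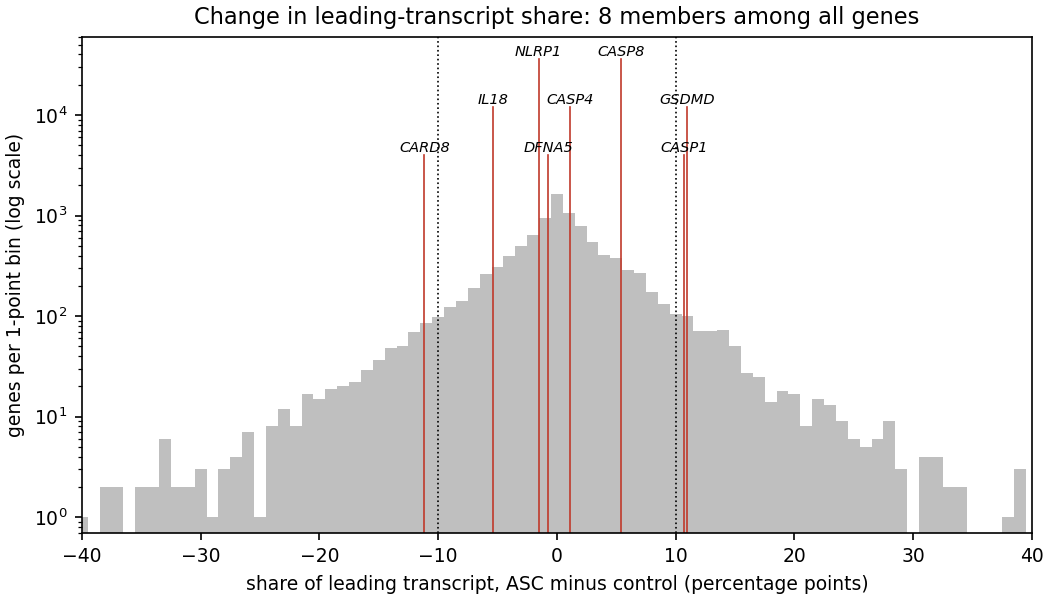
Histogram of the difference in the share of the leading transcript, ASC minus control library in percentage points, over 10451 genes with at least 100 reads in both libraries (grey, log axis, bins of 1 point, cropped at 40 points on each side). Red lines place the 8 studied genes of that depth, and their heights only separate the names. GSDMD and CASP1 lie just above 10 points and CARD8 just below -10, outside the dotted lines.

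The rest of the pathway was taken from 7 lists with 82 genes, of which 63 were found and 42 reached 1 RPKM. None of the 42 was past 2-fold in either direction. Log2 ratios were above 0 for 26 and below for 16, with a median of 0.04. Among other sensors 4 of 5 compared genes lay above 0, led by NLRC5, an activator of MHC class I genes, at 0.28. NLRP2 stood at 13.7 RPKM in the ASC and 14.2 RPKM in the control library, and IFI16, a DNA sensor, at 55.4 and 54.6. NLRP3, NLRP7, NLRP10, NLRP11, NLRC3, NLRC4, NAIP, AIM2, MEFV and NOD2 were under 1 RPKM in both libraries. NLRP3 nevertheless had 27 reads in ASC cells and 3 in control cells, a log2 ratio of reads of 3.16 (1.46 to 5.53), and NLRP10 had 55 and 23. IL36RN, from the IL-1 family list and also under 1 RPKM, went the other way, with 37 and 73 reads. Its log2 ratio of reads was -0.99 (-1.60 to -0.40). NLRP3, NLRP10 and IL36RN were picked out here after their reads were seen. How often genes this low differ as much was not taken.

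Among the regulators, SERPINB1, a serpin that inhibits neutrophil proteases and restrains inflammatory caspases, stood at 36.0 RPKM in ASC cells and 17.8 in control cells. It was 2.02-fold higher in plain RPKM, with a log2 ratio of 0.98, and it alone of the 42 passed 2-fold with a pseudocount of 0.1 RPKM, where 1.28% of all compared genes did. SERPINB9, which inhibits granzyme B, had a log2 ratio of 0.45, and CARD6 one of -0.36. The peptidases DPP8 and DPP9, which hold NLRP1 and CARD8 back, lay at 0.07 and -0.18, and the myristoyltransferase gene NMT2 at 0.16. Of the NLRP3 partners, PANX1 and BRCC3 lay at 0.20 and 0.19 and the kinase gene NEK7 at -0.09, though its log2 ratio of reads was 0.14 (-0.02 to 0.30), while P2RX7 had 1 and 0 reads.

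Of the other gasdermin and membrane rupture genes 2 of 6 compared lay above 0, with GSDMC at 0.23 and GSDMB at -0.27. CHMP4B of the membrane repair machinery lay at 0.19 and NINJ1, which ruptures the membrane after the pores open, at -0.14. The IL-1 cytokines were abundant and close in both libraries, IL1A at 147.2 and 146.7 RPKM and IL1B at 63.8 and 66.9. Their receptor genes IL1R1 and IL1R2 were low, with 4 and 0 reads and with 1 and 1. IL1RL1, the receptor of another cytokine of the family, had a log2 ratio of 0.54 and the shared co-receptor gene IL1RAP one of 0.21, whereas IL18BP, which captures IL-18, had -0.28. In the list around caspase-8, 9 of 14 compared genes lay above 0, with CASP9 at 0.34, CASP10 at -0.31, MLKL at -0.27 and BID at 0.19. Listed genes that were not found, CASP5, CARD17, CARD18, PYDC1 and RIPK3 among them, were not analysed here.

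**Figure D5:**
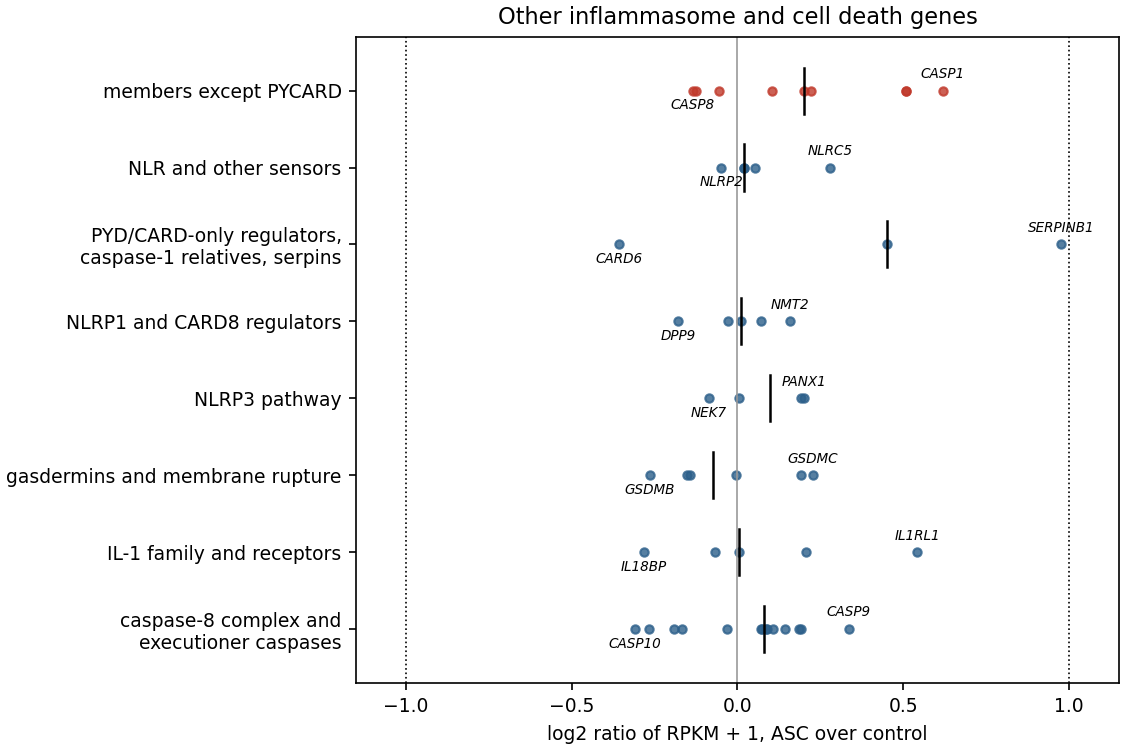
Log2 ratio of RPKM + 1, ASC over control library, for each compared gene (points) of the studied genes without PYCARD (red) and of the 7 other pathway lists (blue), with the median of each list as a black bar and the highest and lowest gene named. Dotted lines mark 2-fold. All 42 listed genes lie inside them, from CARD6 at -0.36 to SERPINB1 at 0.98.

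Genes next to some of the studied ones were compared as well. Of the protein-coding genes nearest to CASP4, CASP1 and CARD16 on chromosome 11, these 3 alone were high enough to compare. On the flanks of DFNA5, MPP6 (0.16), OSBPL3 (0.19) and CYCS (0.35) all lay above 0, as DFNA5 did at 0.22. Neighbours of NLRP1 were also above 0, DERL2 at 0.12 and MIS12 at 0.26, while those of IL18, TIMM8B and SDHD, lay at 0.00 and 0.02. Beside CASP8, CFLAR lay at 0.07, CASP10 at -0.31 and TRAK2 at -0.05. Around GSDMD, itself at 0.20, ZC3H3 lay at -0.29, NAPRT at -0.22 and MROH6 at 0.05. Around CARD8 the values went both ways, with LIG1 at -0.26 and ZNF114 at 0.37. The part of the surrounding genes' values in these ratios was not tested.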

How the data were processed

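Poly(A) RNA of 2 SAS samples, 1 per group, was prepared with TRIzol and a TruSeq v2 kit, per the labels' protocols. The table that the authors deposited holds, per the file headers, an estimated count of reads for every transcript (not whole, not depth-scaled) and its RPKM. The submitters' processing notes give hg38 as the build. For aligner, quantifier and annotation the entry is "not given in the sources used here". Of the 140 transcripts, 132 matched GENCODE release 29 by version and all by identifier, which gave names, types and sequences. In these files 285 lines held a date in place of a gene name and were resolved through the identifier.

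Reads and RPKM were summed per gene. Named transcripts, list genes and neighbours followed a written rule: all 10 genes, transcripts with at least 10% of the reads or 1 RPKM, and up to 4 genes per list. Some genes that this rule names are left out. The members and lists were chosen with earlier results of these data known. Alternatives covered pseudocounts (0.1 and 3 RPKM), filters, thresholds, centring, TMM factors from rounded counts (edgeR 4.0.16, R 4.3.3), CPM, the highest transcript and shares of RPKM. The procedure was tested on simulated reads with known fold changes and shares. These held counting error alone, so that test does not cover read assignment between transcripts or differences between lines. Python 3.11.15 with pandas 2.3.3, numpy 2.4.6, scipy 1.17.1 and matplotlib 3.10.9 was used.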

Additional observations from a re-analysis of the deposited data

How the results depend on the processing

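No paired analysis was possible because each group had 1 library, which also leaves no replicate to leave out. PYCARD kept its direction and stayed past 2-fold under every alternative, with a log2 ratio of 7.52 at a pseudocount of 0.1 RPKM and 5.95 at 3 RPKM. The count of the 10 genes 2-fold higher was 2 at a 1.5-fold threshold and 1 under each other alternative. The number whose leading transcript share differed by 10 points was 3 with shares of summed RPKM, against 5. With a pseudocount of 0.1 RPKM, 7 named transcripts were 2-fold higher and 1 lower, against 3 and 0, beside 4.47% and 4.44% of all 34527 transcripts, and 1 other pathway gene was 2-fold higher, against 0, beside 1.28% of all genes. The 9 other genes gave 54 values under the alternatives, all of the same sign as in the report, and 4 of them moved by more than the counting error: NLRP1, GSDMD and IL18 with the highest transcript (0.01, 0.36 and -0.16) and GSDMD with CPM (0.08). Of 80 shares of reads, 43 moved when taken from RPKM, with CASP4-207 at 2.54% and 2.49%, GSDMD-202 at 11.8% and 19.3%, GSDME-212 at 3.92% and 5.70% and IL18-203 at 7.52% and 5.44%. The cause was not tested. Depth limits PYCARD in the control library and CARD16 in both.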
